A study of Danio rerio with 17 samples.

Results

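The RNAs of hwa (ENSDARG00000094542), sybu (ENSDARG00000060112) and trim36 (ENSDARG00000062794) were followed from the animal to the vegetal end of the zebrafish (Danio rerio) oocyte. The 3 genes were taken by identifier as maternal genes of dorsal determination and vegetal transport, from 32520 genes with an entry, and all 3 were among the 12549 genes tested. Frozen oocytes had been cut into slices, which were collected as 5 segments running from A (animal pole) to E (vegetal pole), and total RNA depleted of ribosomal RNA was sequenced. There were 17 libraries from 4 oocytes: segments A and C had 4 libraries each, and segments B, D and E had 3 each. The oocytes carried no treatment or genotype label, and neither their stage nor whether they came from 1 or several females is given in the labels. Among the libraries analysed here, oocytes 1, 3 and 4 had both ends, and oocyte 1 alone had all 5 segments.

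The dorsal side of a fish embryo is set by maternal products that are stored at the vegetal pole of the egg and moved along microtubules to 1 side after fertilization, where they stabilize beta-catenin. Hwa (Huluwa) is a membrane protein that does this in zebrafish and frog by lowering Axin. Sybu (Syntabulin) is a linker between cargo and the motor kinesin-1, and zebrafish eggs without it fail to form dorsal structures. Trim36 is a ubiquitin ligase whose vegetal RNA, in the frog Xenopus, is needed for the vegetal microtubule array.

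Reads in genes numbered 4054233 to 9319365 in the libraries of oocyte 1 and 13833357 to 23672322 in the others. Levels are given as CPM, the reads of a gene relative to a library size that was scaled across libraries. Oocyte 1 also stood apart in its spike-in RNA, which took at most 0.00239% of its reads against 0.185% to 0.802% elsewhere. Segment C of oocyte 3 had the fewest genes with a read, 8535 against up to 11280. The 12 oocyte marker entries (such as buc, gdf9 and bmp15) summed to 3032 to 4128 CPM in every library. Of 21 follicle cell entries 14 were at 0 and the sum was 64.8 to 340 CPM in segment A and 198 to 279 CPM in E, and its part in the results was not tested. Of 11 blood cell entries 10 were at 0, and the other, coro1a, reached at most 17.2 CPM. Libraries were made from 5.5 ng of RNA each, so a level is a concentration among RNAs. More molecules of 1 RNA and fewer of all others cannot be told apart.

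All 3 RNAs were highest in segment E. The RNA of hwa had few reads in A and B of most oocytes. It rose from B to C in oocytes 1 and 2, but C differed little from B in oocyte 4. The step from B to C was not called without oocyte 1. Levels of hwa in C and D overlapped, and it rose again into E. The RNA of sybu had overlapping levels from A to C and rose from C to D and from D to E. With the oocyte as a block its step from B to C was called too. The level of trim36 was higher at each next segment of each oocyte, and the steps from C to D and from D to E passed the test. Its first 2 steps passed only in some alternatives, among them the oocyte as a block. By tests of their ratios the profile of sybu differed from that of hwa, but not at the adjusted threshold without oocyte 1, 2 or 3. Its difference from that of trim36 passed in 1 of 3 splits of the segments. With labels permuted within oocytes that split did not pass and another did. The difference of hwa and trim36 missed the threshold. Between E and A the log2 differences were 10.18 ± 0.89 (SE) for hwa, 5.10 ± 0.42 for sybu and 6.77 ± 0.47 for trim36, with edgeR quasi-likelihood adjusted p-values (Benjamini-Hochberg over all genes tested) of 6.15e-13, 7.94e-14 and 1.58e-16. Over fits that left out 1 library or 1 oocyte these differences ran from 9.74 to 10.83, 4.70 to 5.72 and 6.18 to 7.50, and all were called. In this comparison 1.91% of all tested genes were called at an adjusted p under 0.05, with 1.03% higher at the vegetal end and 0.885% higher at the animal end. In the joint test of any difference among segments, in which 1.67% of genes were called, trim36, sybu and hwa ranked 2, 3 and 7 among all genes by p-value. By the size of the log2 difference of E and A, counted from the highest, they ranked 424, 550 and 52 of 12549. As 129 genes were called higher in E, most of the genes ranked above trim36 and sybu by size were not called.

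**Figure D1:**
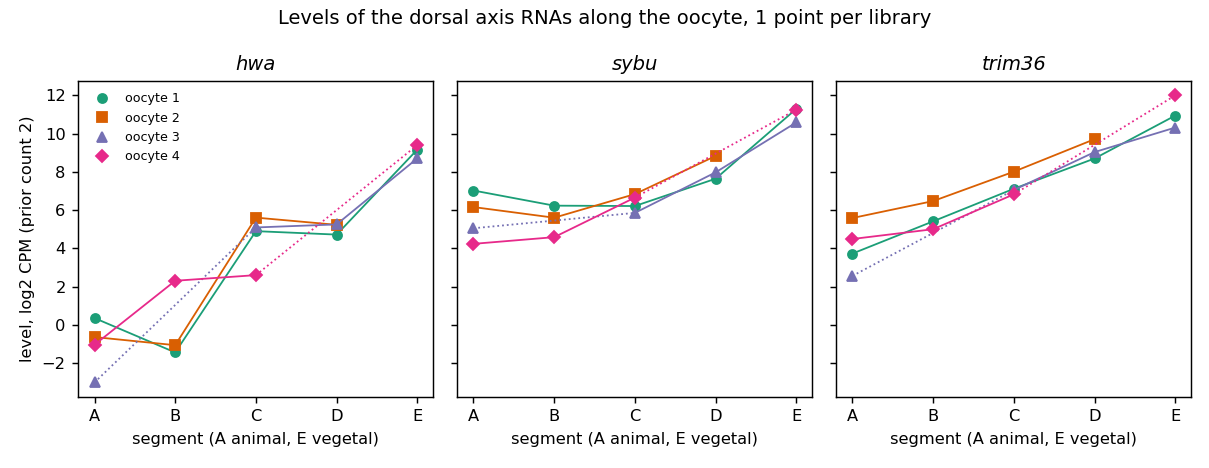
Level of each RNA in log2 CPM (prior count 2) by segment, with 1 point per library, 1 colour per oocyte, and dotted lines across segments that an oocyte lacks. The hwa panel shows the low values in A and B, the overlapping values in C and D and the rise into E; the values of sybu overlap from A to C, and each line of trim36 goes up at every point.

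In segment A, hwa had 11, 10, 0 and 7 reads in oocytes 1 to 4, which gave 1.16, 0.519, 0 and 0.362 CPM. The 0 in oocyte 3 allows up to 0.175 CPM (3 reads), counting error only. In segment B it had 2 reads (0.244 CPM) in oocyte 1 and 8 reads (0.355 CPM) in oocyte 2. In oocyte 4 it had 111 reads there, 4.83 CPM with a 95% exact Poisson interval of 3.97 to 5.81 CPM that covers counting error only. Oocyte 4 thus had more hwa in B than either other oocyte by far more than counting error. The vegetal RNAs dazl and vrtn, compared below, were also highest in B of oocyte 4. In B of oocytes 1, 2 and 4 dazl had 3.66, 0.0444 and 17.2 CPM and vrtn had 12.7, 37.0 and 99.1 CPM. In oocyte 4 the log2 differences of hwa, dazl and vrtn were 3.35, 4.27 and 2.35 from A to B. From B to C they were 0.29, 0.77 and -0.11. By contrast celf1, sybu and trim36 were lowest in oocyte 4 among the libraries of B.

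In segment C, hwa stood at 29.8, 48.7, 34.04 and 5.95 CPM in oocytes 1 to 4. Oocyte 4 was below all of the others. Oocyte 2 was above oocytes 1 and 3 by more than counting error, with Poisson intervals of 45.1 to 52.5, 26.0 to 33.9 and 31.6 to 36.6 CPM. Within oocyte 4, C differed little from B, with Poisson intervals of 4.99 to 7.03 and 3.97 to 5.81 CPM. In oocytes 1 and 2, by contrast, the log2 difference from B to C was 6.34 and 6.67. Both rest on B libraries of 2 and 8 reads, so their size is uncertain. In oocyte 3, which has no B here, C was at least 194-fold higher than A, with the 0 taken at the floor of 3 reads.

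In segment D, hwa had 26.2, 37.5 and 38.02 CPM in oocytes 1, 2 and 3. Within these oocytes D differed from C by -0.18, -0.38 and 0.16 on the log2 scale, and the ranges of C and D overlapped. In segment E it had 575, 418 and 677 CPM in oocytes 1, 3 and 4, all far above every other library. Within oocyte 1, the only one with every segment, E held 90.9% of the summed CPM of hwa, C 4.71% and D 4.15%.

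The step from B to C was called for hwa, at 3.97 ± 0.75 on the log2 scale (edgeR adjusted p of 0.00918), where 0.0478% of all genes were called, 0.0319% higher and 0.0159% lower. It was not called without oocyte 1 (3.51, edgeR adjusted p of 0.249). The step from C to D was 0.20 ± 0.63 (edgeR adjusted p of 1) and that from D to E was 4.03 ± 0.76 (edgeR adjusted p of 0.00228), where 0.175% of genes were called, 0.151% higher and 0.0239% lower. The step from A to B, 1.97 ± 0.71 (edgeR adjusted p of 0.890), rested on segment B of oocyte 4 and was -0.59 without it.

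The RNA of sybu had 130.2, 71.4, 33.07 and 18.7 CPM in segment A of oocytes 1 to 4. The oocytes thus differed widely in A, with oocyte 1 highest and oocyte 4 lowest. In segment B it had 75.2, 48.5 and 23.9 CPM in oocytes 1, 2 and 4. In segment C it had 74.1, 114, 57.8 and 101 CPM in oocytes 1 to 4. The ranges of A, B and C overlapped.

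In segment D, sybu had 199.6, 456 and 252 CPM in oocytes 1, 2 and 3, all above every library of C. In segment E it had 2514, 1538 and 2441 CPM in oocytes 1, 3 and 4, again with no overlap. Within oocyte 1, A held 4.35% of the summed CPM of sybu, B 2.51%, C 2.48%, D 6.67% and E 84.0%.

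The oocytes differed in the level of sybu in C relative to A. In oocyte 1 the level in C was below that in A, by 0.81 on the log2 scale, and in oocytes 2 and 3 it was above A by 0.68 and 0.80. In oocyte 4 the level in C was 2.42 above A, though its 101 CPM in C lay within the range of the other oocytes. Oocyte 4 also had the lowest level of A and the largest log2 rise from A to E, 7.02 against 4.27 in oocyte 1 and 5.53 in oocyte 3.

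For sybu the step from A to B was -0.37 ± 0.38 on the log2 scale (edgeR adjusted p of 1) and that from B to C was 0.82 ± 0.38 (edgeR adjusted p of 0.874). With the oocyte as a block the step from B to C was 1.12 (edgeR adjusted p of 0.0437). The step from C to D was 1.80 ± 0.37 (edgeR adjusted p of 0.0205), where 0.104% of genes were called, 0.0319% higher and 0.0717% lower, and that from D to E was 2.84 ± 0.43 (edgeR adjusted p of 6.23e-05). The step from C to D was not called without segment C of oocyte 1 (1.73, adjusted p of 0.107), segment C of oocyte 3 (1.65, 0.116) or segment D of oocyte 2 (1.38, 0.166).

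The RNA of trim36 had 13.1, 48.0, 5.78 and 22.4 CPM in segment A of oocytes 1 to 4. In segment B it had 42.6, 88.8 and 31.95 CPM in oocytes 1, 2 and 4. In segment C it had 139, 258, 133 and 114 CPM in oocytes 1 to 4. The ranges of A and B overlapped, and every library of C was above every library of B.

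In segment D, trim36 had 416, 838 and 525 CPM in oocytes 1, 2 and 3. In segment E it had 1972, 1277 and 4097 CPM in oocytes 1, 3 and 4. Both segments lay above all libraries of the segment before. Within oocyte 1, A held 0.509% of the summed CPM of trim36, B 1.65%, C 5.38%, D 16.1% and E 76.4%. Oocyte 2 had the highest trim36 in each of A, B, C and D.

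All 13 steps of trim36 between consecutive analysed segments of an oocyte went up. So did every such step of lef1, a pathway RNA described below, and how many of all genes do so was not counted. Of the 13 steps of hwa 9 went up, and its 4 falls lay between A and B or between C and D. Of the 13 steps of sybu 10 went up. In oocyte 1 trim36 multiplied 3.24-fold from A to B, 3.26-fold from B to C, 3.00-fold from C to D and 4.74-fold from D to E. In oocyte 2 the factors were 1.85, 2.91 and 3.25 from A to D.

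For trim36 the steps on the log2 scale were 1.28 ± 0.39 from A to B, 1.56 ± 0.41 from B to C, 1.88 ± 0.39 from C to D and 2.05 ± 0.43 from D to E. Whether these steps differ from each other was not tested. The edgeR adjusted p-values were 0.890, 0.250, 0.0205 and 0.0114, so the last 2 steps were called. With the oocyte as a block the first 2 steps were called as well, at 1.26 (edgeR adjusted p of 0.00465) and 1.86 (1.96e-07). The step from A to B was also called without oocyte 4 (1.56, edgeR adjusted p of 0.0161) and without its segment B (1.56, 0.0450). The step from B to C was called in 8 of the fits that left out libraries, at 1.58 to 2.12 (edgeR adjusted p of 0.000436 to 0.0380), some of which left out libraries of neither B nor C. Between A and B 0.00797% of genes were called higher in the fit without the block, and that fit called 0 of the 3 RNAs there. At an unadjusted p under 0.05 hwa and trim36 passed, and of the other tools DESeq2 called 0 and limma called trim36. The step from C to D was not called without segment C of oocyte 1 (1.82, edgeR adjusted p of 0.107), of oocyte 3 (1.80, 0.0824) or of oocyte 4 (1.75, 0.0884), or without segment D of oocyte 2 (1.54, 0.0602). The step from D to E was not called without segment E of oocyte 4 (1.47, edgeR adjusted p of 0.157), segment D of oocyte 1 (1.86, 0.0652) or the whole of oocyte 1 (1.98, 0.0822).

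**Figure D2:**
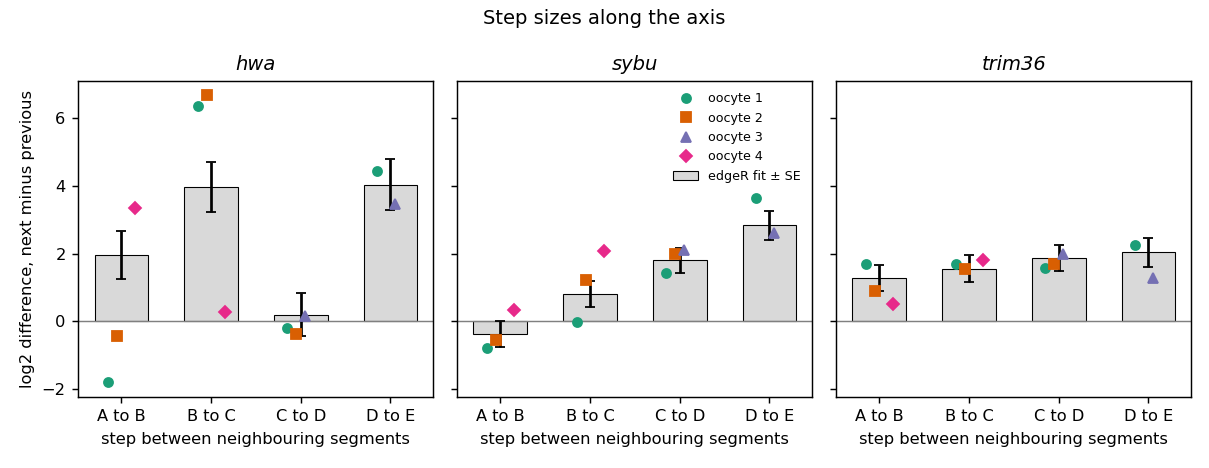
Log2 difference between neighbouring segments for each RNA: grey bars are the edgeR estimates ± SE, and points are the differences within each oocyte that has both segments. The steps of hwa are 1.97, 3.97, 0.20 and 4.03, those of sybu grow from -0.37 to 2.84, and those of trim36 stay between 1.28 and 2.05.

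The shape of each profile was tested as a bend, the log2 difference from C to E minus that from A to C. A bend above 0 means that the rise is steeper on the vegetal than on the animal side of C. It was 4.18 ± 0.68 for sybu, with an edgeR adjusted p of 0.00100, and it was positive in each of the 3 oocytes with both ends (5.89, 3.93 and 2.18 in oocytes 1, 3 and 4). In the main edgeR fit 3 of 12549 genes were called in this test (0.0239%). The others were map3k1, named after its values were seen, and raver1, with bends of 3.06 ± 0.55 and 1.75 ± 0.36. The number of genes called depended on the fit. DESeq2 called 349, of which 180 had a bend above 0 and 169 below. Limma on the authors' values called 77 (2 above and 75 below). With the authors' factors edgeR called 67 (2 above and 65 below). The median bend of all tested genes was -0.62 with limma and -0.84 with the authors' factors, against -0.06 in the main fit. The fit without oocyte 1 called 0. Without oocyte 1 the bend of sybu was 3.31 with an edgeR adjusted p of 0.0617. A positive bend in each of oocytes 1, 3 and 4 was also seen for celf1 (1.24, 8.22 and 1.89), a vegetal RNA compared below. Its size in oocyte 3 rests on 1 low library, C, with 20.0 CPM of celf1 against 84.5 to 199 CPM in C of the other oocytes. The other RNAs compared below, dazl and vrtn, had bends of -1.66 and -0.41 in oocyte 3 and positive ones in oocytes 1 and 4.

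The bend was 1.08 ± 0.65 for trim36 and -1.71 ± 1.05 for hwa, both with an edgeR adjusted p of 0.862. Within oocytes 1, 3 and 4 it was -0.28, -4.49 and 3.16 for hwa, so its sign differed among oocytes. For trim36 the values were 0.44, -1.23 and 2.83, also of both signs. The value in oocyte 3 depends on the prior count, as hwa had 0 reads in its segment A. As a share of the log2 rise from A to E, the part reached at C was 45.3% ± 13.5 (SD, n = 3 oocytes) for trim36 and 51.9% ± 17.1 for hwa. For sybu it was -19.0%, 14.5% and 34.5% in oocytes 1, 3 and 4, and for trim36 it ran from 31.1% to 57.9%.

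The RNAs were then compared with each other within each library, by the log2 ratio of their CPM, which depends on the scaling of libraries only through the prior count of 2. For hwa, whose reads in A and B are few, the prior also sets part of its size. A change of this ratio between segments compares shapes. Its absolute value depends on transcript length and is not a ratio of molecules. The ratio of hwa to sybu went from -6.20 ± 1.94 (SD, n = 7) in A and B to -2.52 ± 0.69 (n = 6) in D and E. This difference of 3.69 had a 2-sided exact permutation p of 0.00466, and 0.0210 after Benjamini-Hochberg adjustment over 36 tests (12 pairs of RNAs and 3 splits of the segments). Between C and D and the pair A and B the difference was 3.83 (exact permutation p of 0.00350, adjusted 0.0180). Between E and the pair C and D the ratio of hwa to sybu differed by 0.42 (exact permutation p of 0.600, adjusted 0.720).

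The ratio of trim36 to sybu went from -0.81 ± 1.56 (n = 7) in A and B to 0.92 ± 0.35 (n = 7) in C and D, with an exact permutation p of 0.00583 and an adjusted p of 0.0233. With labels permuted only within an oocyte the adjusted p was 0.0952. In E the ratio was 0.04 ± 0.61 (n = 3), lower than in C and D by 0.88 (exact permutation p of 0.0333, adjusted 0.0800, where the smallest possible p was 0.0167). The fall from D to E was seen in oocytes 1 and 3. In oocyte 4 the ratio was higher in E than in C. Between D and E and the pair A and B the ratio of trim36 to sybu differed by 1.33 (exact permutation p of 0.0711, adjusted 0.122), and the adjusted p within oocytes was 0.0494.

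The ratio of hwa to trim36 rose by 2.36 from A and B to D and E (exact permutation p of 0.0233, adjusted 0.0646) and by 2.11 from A and B to C and D (0.0227, adjusted 0.0646). Between E and the pair C and D it differed by 1.30 (exact permutation p of 0.117, adjusted 0.175). None of these 3 differences passed the adjusted threshold. Without oocyte 1, 2 or 3 the called differences of hwa to sybu were 3.27 to 3.69 (exact permutation p of 0.0216 to 0.0476, adjusted 0.107 to 0.133). That of trim36 to sybu was 1.20 to 2.07 (0.0238 to 0.0556, adjusted 0.107 to 0.156). With fewer libraries the smallest possible p was 0.00433 to 0.0159, and all of these tests had a p above it.

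**Figure D3:**
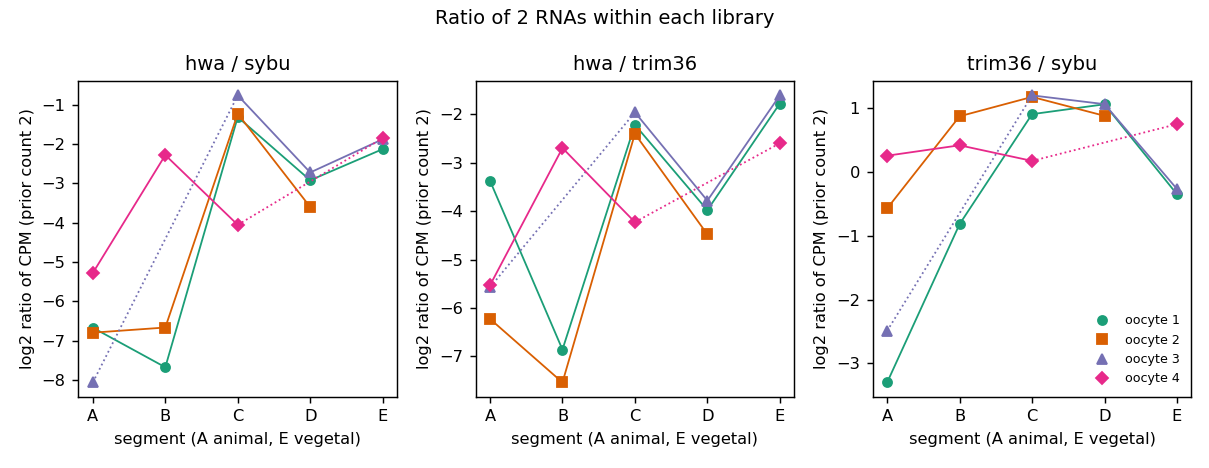
Log2 ratio of the CPM of 2 RNAs within each library (prior count 2) by segment, with 1 point per library and dotted lines across segments an oocyte lacks. In oocytes 1 and 2 both ratios of hwa jump between B and C, while oocyte 4 has its jump between A and B; trim36 gains on sybu up to C in oocytes 1, 2 and 3.

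Other vegetal RNAs gave a scale for these shapes: dazl, a germ cell RNA-binding protein, celf1, an RNA-binding protein, and vrtn, a regulator of dorsoventral patterning in zebrafish. Each rose from A to E, by 8.87 ± 0.92, 3.19 ± 0.42 and 4.83 ± 0.46 on the log2 scale (edgeR adjusted p of 2.06e-10, 1.52e-07 and 1.42e-11). Relative to celf1, hwa gained 5.52 on the log2 scale, trim36 gained 3.15 and sybu gained 1.83 between A and B and the pair D and E (adjusted exact permutation p of 0.00699, 0.00699 and 0.0343). Relative to vrtn, hwa gained 4.03 (adjusted 0.00699), while trim36 and sybu differed by 1.67 and 0.34 (adjusted 0.0659 and 0.733). Relative to dazl, sybu, hwa and trim36 differed by -3.17, 0.51 and -1.85 (adjusted 0.0294, 0.677 and 0.175). Without oocyte 1, 2 or 3 the difference was 4.95 to 5.71 for hwa to celf1, 3.65 to 4.54 for hwa to vrtn and 2.79 to 3.66 for trim36 to celf1. Each of these had the smallest exact permutation p its libraries allow (0.00794, 0.00952 or 0.0159), with an adjusted p of 0.0571 or 0.0714. The adjusted p also depends on the other tests. Without oocyte 4 the same ratios had an exact permutation p of 0.00794 and passed, with an adjusted p of 0.0286. For sybu the difference from celf1 was 1.68 to 2.22 (exact permutation p of 0.0159 to 0.0476) without oocyte 1, 2 or 3 and 1.41 (0.0635) without oocyte 4, and that from dazl was -3.35 to -2.29 (0.0476 to 0.0794) without oocyte 1, 2 or 3. For sybu the differences from celf1 and dazl had adjusted p-values of 0.0952 and 0.0889 with labels permuted within oocytes.

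The RNAs whose levels were most like each of the 3 were found by the Pearson correlation of log2 CPM over the 17 libraries, among the 8558 genes whose mean reached 10 CPM. This is a description of libraries that share oocytes and depth. For hwa the closest were bach2a (0.94), slbp2 (0.93), vrtn (0.92), sh2d5 (0.92) and trim36 (0.91). For trim36 they were sh2d5 (0.94), tbc1d10aa (0.94), fastk (0.93), slbp2 (0.93) and bach2a (0.93). For sybu they were stk17al (0.95), ndel1 (0.94), camk2g1 (0.94), raver1 (0.94) and fastk (0.92). By this measure the lists of hwa and trim36 shared bach2a, slbp2 and sh2d5, and that of sybu shared fastk with trim36. The lists depended on the measure and the libraries. By Spearman's correlation 2 of the 5 remained among the closest 5 for hwa, 3 for sybu and 3 for trim36, and without oocyte 1 the numbers were 3, 4 and 2. For sybu, raver1 was at rank 68 and fastk at rank 17 by Spearman's correlation. For hwa, sh2d5 and slbp2 were at ranks 8 and 9 by it, and for trim36 slbp2 was at rank 16 without oocyte 1. The 3 RNAs themselves correlated at 0.91 for hwa and trim36, 0.87 for trim36 and sybu, and 0.82 for hwa and sybu. Mean CPM from A to E was 90.7, 147, 172, 401 and 1040 for stk17al, while ndel1, a dynein regulator, went from 87.4 in A to 637 in E.

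Most of the other genes of the dorsal pathway were not called between the ends of the axis. Some names stand for more than 1 entry, because the table of symbols gives duplicated zebrafish genes 1 family symbol. Of 25 tested entries of the dorsal signal and its regulators, hwa and lef1 were called higher in E, axin1 and 1 of the 2 fzd7 entries were called lower, and the median log2 difference was 0.23. In this list 4 entries had an unadjusted edgeR p under 0.05 in the higher direction and 4 in the lower. DESeq2 called 4 of them higher and 3 lower, and limma 3 higher and 2 lower. Of 13 tested entries of vegetal transport, sybu and 1 of the 2 grip2 entries were called higher and 0 lower by edgeR, with a median of 0.09. For the lower direction 0 had an unadjusted p under 0.05, and DESeq2 called 1 and limma 0. Of 21 tested microtubule entries, trim36 and 1 of the 2 camsap3 entries were called higher and 0 lower, with a median of 0.06. There 1 entry had an unadjusted p under 0.05 in the lower direction, and DESeq2 called 1 and limma 0. Without hwa, sybu and trim36 these lists had 24, 12 and 20 tested entries, with 1 called higher by edgeR in each. Their medians were then 0.20, 0.02 and 0.05. Among all tested genes 1.03% were called higher and 0.885% lower, with a median of 0.00. Of all 12549 genes, 1010 had an unadjusted edgeR p under 0.05 in either direction, and DESeq2 called 333 higher and 367 lower.

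**Figure D4:**
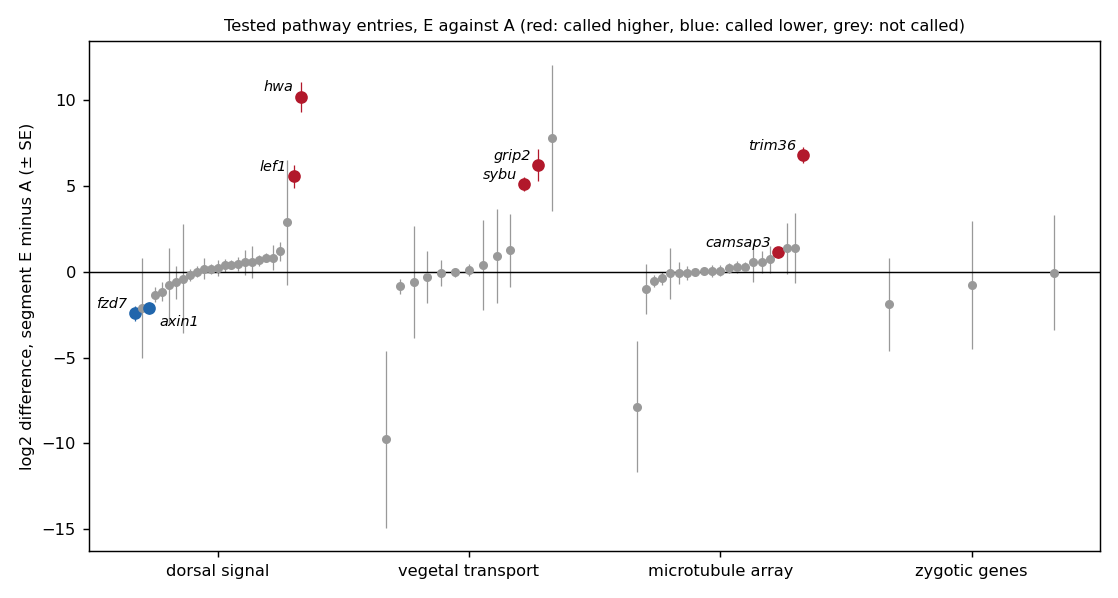
Log2 difference between segments E and A (± SE) of each tested entry in 4 lists of the dorsal pathway; red points were called higher in E, blue points lower, and grey points were not called. Most entries are grey, and hwa, trim36, grip2, lef1 and sybu lie between 5.10 and 10.18.

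The RNA of lef1 (ENSDARG00000031894), a DNA-binding partner of beta-catenin, had a graded profile. It had 1.37, 43.1, 10.9 and 2.02 CPM in A of oocytes 1 to 4, and 712, 482 and 828.7 CPM in E of oocytes 1, 3 and 4. Mean levels were 14.3, 25.2, 65.3, 204 and 674 CPM from A to E, and the ranges of C, D and E did not overlap. Within each oocyte lef1 was higher at each next analysed segment, as was trim36. The log2 difference of E and A was 5.55 ± 0.65 (edgeR adjusted p of 7.44e-09), and the call held under all 29 alternatives.

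The grip2 entry ENSDARG00000087187 belongs to a family of scaffold proteins in which zebrafish grip2a is a maternal gene of dorsal determination. Which grip2 copy this entry is, the table of symbols does not say. It had 2.52, 7.84, 16.0 and 2.17 CPM in A of oocytes 1 to 4, and 403, 376 and 807 CPM in E of oocytes 1, 3 and 4. Its means in B and C were 15.9 ± 17.3 and 16.0 ± 16.7 CPM, with 0 reads in C of oocyte 3, and it reached 69.9 ± 25.03 CPM in D. The log2 difference of E and A was 6.20 ± 0.91 (edgeR adjusted p of 1.72e-06). Levels from A to C overlapped and those of D and E did not, the order of steps also seen for sybu, lef1, dazl and vrtn. The other grip2 entry (ENSDARG00000027618) had means of 3.90 CPM in A and 5.09 CPM in E, and was not called (0.38 ± 2.63, edgeR adjusted p of 1).

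The RNA of axin1 (ENSDARG00000102964), the scaffold of the complex that destroys beta-catenin, went the other way. It had 893, 520, 372 and 423 CPM in A of oocytes 1 to 4, and 132, 107 and 145 CPM in E of oocytes 1, 3 and 4. The lowest library of B, 349 CPM, was above the highest of C, 279 CPM. The log2 difference of E and A was -2.11 ± 0.36 (edgeR adjusted p of 4.24e-05).

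The fzd7 entry ENSDARG00000027589, a Wnt receptor, had 312, 258, 411 and 324 CPM in A of oocytes 1 to 4. In C, D and E it had 33.7 to 94.2 CPM. The log2 difference of E and A was -2.44 ± 0.45 (edgeR adjusted p of 0.000182). The ranges of C, D and E overlapped, and all of these libraries except D of oocyte 2 and D of oocyte 3 were below every library of A and B.

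**Figure D5:**
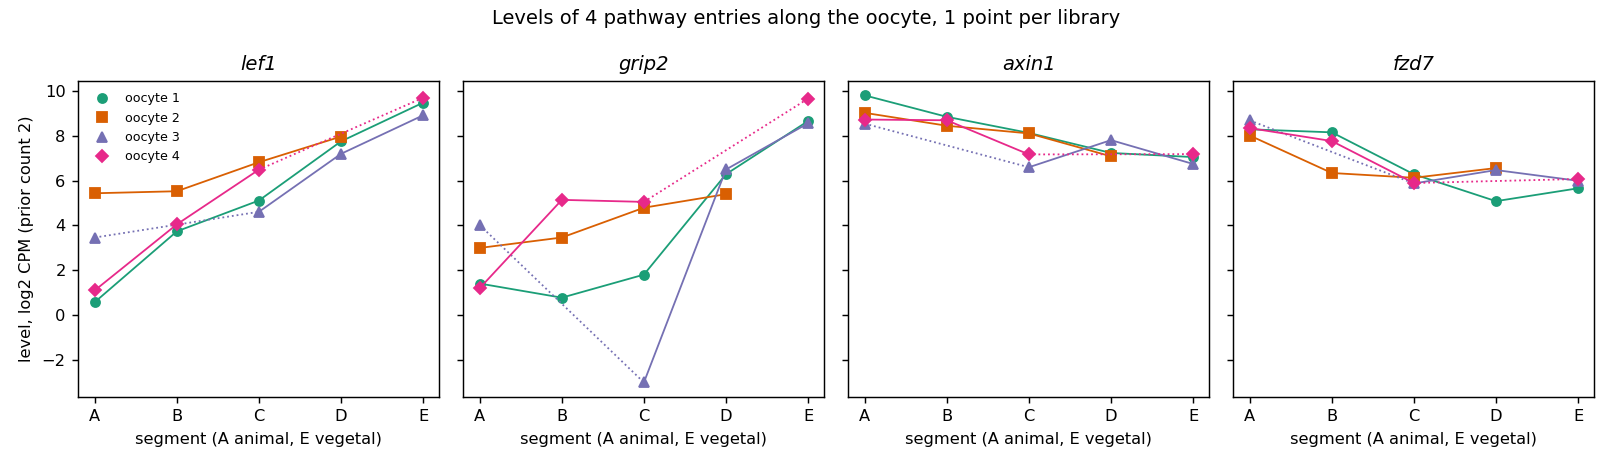
Level in log2 CPM (prior count 2) of 4 pathway entries by segment, with 1 point per library and dotted lines across segments an oocyte lacks. The entries lef1 and grip2 are highest in E of each oocyte that has it, and axin1 and fzd7 are highest in A.

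The camsap3 entry ENSDARG00000059475, whose protein binds microtubule minus ends, had means of 143 ± 45.8 CPM in A and 314 ± 81.6 CPM in E (1.14 ± 0.32 on the log2 scale, edgeR adjusted p of 0.0438). This call was lost under 10 of 29 alternatives, among them each fit without oocyte 1, 3 or 4. Both genes for beta-catenin were measured. Means in A and E were 545 and 611 CPM for ctnnb1 (0.17 ± 0.28, edgeR adjusted p of 1) and 383 and 677 CPM for ctnnb2 (0.82 ± 0.27, 0.146). With the oocyte as a block ctnnb2 was called, at 0.88 (edgeR adjusted p of 0.0375), as it was with the authors' factors (1.04, edgeR adjusted p of 0.0164), DESeq2 (0.83, adjusted p of 0.0169) and limma on the authors' values (1.05, 0.00925). Lowering of Axin by Hwa uses tankyrase. Its entries tnks ENSDARG00000062897 and ENSDARG00000077650 were not called (0.65 ± 0.34 and 0.23 ± 0.46, edgeR adjusted p of 0.637 and 1), nor was znrf3, a ubiquitin ligase for Wnt receptors (0.16 ± 0.61, 1). The Wnt co-receptors lrp5 and lrp6 (-1.18 ± 0.55 and 0.82 ± 0.71) had edgeR adjusted p-values of 0.595 and 0.946. The entry with more reads of the 2 for the kinesin-1 heavy chain kif5b (ENSDARG00000074131) had means of 48.2 CPM in A and 45.7 CPM in E (-0.08 ± 0.75, edgeR adjusted p of 1).

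The last list was drawn up as zygotic genes of dorsoventral patterning that act after maternal beta-catenin. It covered both dorsal genes that beta-catenin turns on and ventral genes that these oppose. Not all were without RNA in the oocyte, as ndr1 had 2673 reads over all libraries. Of the 15 entries of this list 9 had 0 reads in all libraries, among them dharma and chrd on the dorsal side and vox on the ventral side. Of the 3 entries that could be tested (ndr1, an fgf8 entry and frzb), edgeR called 0, with 0 at an unadjusted p under 0.05, and DESeq2 and limma called 0 as well. The RNA of wnt8a, described as a vegetal RNA in zebrafish oocytes, had 0 reads at both of its entries. Reads that aligned more than once were left unassigned, which can leave near-identical copies at 0. Whether this was so for wnt8a was not tested.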

How the data were processed

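RNA of 17 segment libraries from 4 oocytes was analysed. The authors deposited raw counts per Ensembl gene, whole numbers in tables with 92 spike-in and 5 summary entries. Library sizes and tests used the genes only. Per the submitters' processing notes, Trimmomatic, STAR 2.5.3a, HTSeq and DESeq2 were used with build GRCz11. The annotation release and strand setting are not given in the sources used here, so values of overlapping genes are uncertain. Of all entries, 6.88% to 14.2% were reads with more than 1 alignment, which were assigned to no gene, 4.60% to 6.10% were reads outside genes and 0.502% to 0.633% were ambiguous. The authors also deposited a normalized signal, each library's counts divided by 1 factor. Multiplying by that factor gave whole reads, within 0.01 reads, for 100% of values, all equal to the deposited counts, and edgeR with these factors called 233 genes between E and A.

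Genes retained by filterByExpr (minimum count 10, by segment) were tested with edgeR 4.0.16 (R 4.3.3): TMM scaling, quasi-likelihood F-test, 1 coefficient per segment over all 17 libraries, 2-sided, Benjamini-Hochberg over 12549 genes. Calls needed an adjusted p below 0.05. SE is the log2 difference divided by the square root of F. Poisson intervals used scipy 1.17.1. Ratios within libraries were compared by exact permutation (numpy 2.4.6) of log2 CPM (prior count 2). These tests treat libraries of 1 oocyte as exchangeable. Same-numbered libraries come from the same oocyte, so the oocyte was used as a block in an alternative. Over 2673 genes of at least 100 CPM, the median correlation of deviations from segment means was 0.0715 within oocytes and -0.0363 between oocytes and segments. By oocyte it was 0.0246, 0.117, 0.0125 and 0.232 in oocytes 1 to 4. Whether oocytes came from separate females is not given, so p-values measure the spread among these libraries. Alternatives used DESeq2 1.42.0, limma 3.58.1 on log2(authors' value + 1), other scalings, no filter and fewer libraries. The edgeR code was tested on simulated data.

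The 3 genes, the lists and the tests were chosen with earlier results of these data known. Named genes are the 3 RNAs, dazl, celf1 and vrtn, the 5 RNAs most like each of the 3, and, from the pathway lists, the called entries and the regulators of Hwa, Kinesin-1 and beta-catenin chosen with the lists. Symbols came from a table that named 89.8% of identifiers. Sequences and genome positions were not used here.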

Additional observations from a re-analysis of the deposited data

Results flagged for a closer look

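In segments A and C, which have 4 libraries, 1 library standing far off was looked for among the values of hwa, sybu, trim36, dazl, celf1 and vrtn, and 1 of 12 groups held one. The level of vrtn in segment A was 81.2 CPM in oocyte 2, far above the other oocytes, a gap that chance gives in about 1 of 20 groups. None of the 6 groups of hwa, sybu and trim36 held such a library.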

How the results depend on the processing

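All 3 RNAs were called between E and A, and in the joint test, under all 29 alternatives. The single steps were less stable, and unless stated otherwise the cause was not tested. Values are log2 differences. Leaving out 1 library or 1 oocyte gave -0.73 to 3.09 for hwa from A to B, 3.11 to 6.87 from B to C and -0.14 to 0.55 from C to D. For sybu the ranges were -0.82 to 0.26 from A to B, 1.38 to 2.03 from C to D and 3.31 to 4.55 for the bend. For trim36 they were 0.74 to 1.98, 1.24 to 2.12, 1.54 to 2.21 and 1.45 to 2.40 in the order of the steps. With spike-in totals as library sizes, which leaves oocytes 2 to 4, hwa gave 3.39 from B to C, -0.021 from C to D and 4.92 from D to E, none of them called. Under this scaling sybu gave 1.22 from C to D, 3.66 from D to E and 3.095 for the bend, and trim36 gave 1.45 and 3.30 for the last 2 steps, also not called.

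With limma on the authors' values, calls were lost for hwa from B to C (4.71) and D to E (3.57), for sybu from C to D (1.93) and the bend (3.101), and for trim36 from C to D (2.07) and D to E (1.48). DESeq2 did not call trim36 from C to D (1.88) or D to E (2.07), and with the authors' factors D to E was not called either (1.58). From A to B trim36 was called with the authors' factors (1.82), no filter (1.26), limma (2.07) and the oocyte as a block (1.26), and from B to C with no filter (1.59) and the block (1.86). The block also called sybu from B to C (1.12). From A to B sybu changed sign with the authors' factors (0.18) and limma (0.39), as did the bend of trim36 with limma (-0.11). The authors' factors shifted the median of all tested genes by 0.22 between E and A. In that comparison DESeq2 called 700 genes against 240, spike-in scaling 29 and the fit without oocyte 1 152. Shifts of the median in some single steps were larger. With the authors' factors it was 0.49 from A to B and -0.38 from D to E, and with limma 0.51 and -0.34. With spike-in totals it was -0.69 from C to D and 0.94 from D to E. In the main fit the medians of the single steps lay between -0.03 and 0.05. How far the changed values above follow these shifts was not tested.

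Of the pathway lists, DESeq2 called 4 dorsal entries higher and 3 lower, 1 transport entry lower and 1 microtubule entry lower. Spike-in scaling called 0 dorsal entries lower, and it and library sizes alone called 1 microtubule entry higher, with 1 to 2 when leaving out libraries. The differences of znrf3 (-0.15 with spike-in scaling, -0.44 to 0.76 leaving out), ctnnb1 (-0.054 to 0.35) and tnks ENSDARG00000077650 (-0.051 to 0.59) changed sign. So did those of kif5b ENSDARG00000074131 (0.14, 0.49 and 0.43 with the authors' factors, spike-ins and limma, -0.39 to 0.39 leaving out) and ENSDARG00000103394 (2.19 with limma, 5.38 with the block, -2.54 to 9.59 leaving out).

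Among ratios, a prior count of 0.5 called hwa to trim36 (2.84 for D and E, 2.58 for C and D, against A and B). Permuting within oocytes, the block, called trim36 to sybu for D and E (1.33) and not for C and D (1.73). Leaving out an oocyte gave 3.27 to 4.52 and 3.27 to 5.08 for hwa to sybu and 1.20 to 2.31 for trim36 to sybu in C and D. It also changed the sign of uncalled ratios: hwa to dazl (-0.077 to 1.40 for D and E against A and B, -1.08 to 0.40 for E against C and D), sybu to vrtn (-0.25 to 1.23 for D and E, -1.04 to 0.54 for C and D), and, for E against C and D, trim36 to celf1 (-0.38 to 0.88) and to vrtn (-0.18 to 0.53).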
